A study of Danio rerio with 13 samples.

Results

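Genes that mark adipocytes were read out in the skin of zebrafish carrying wild-type or mutant alleles of tert, the gene for the reverse transcriptase subunit of telomerase. The 7 symbols plin1, adipoqa, adipoqb, lpl, fabp11a, pparg and cebpa were looked up in the deposited count table, and 8 of its 32105 gene rows matched. Of these 8 genes, 7 had enough reads to be tested and plin1 did not. The name table gave the symbol ADIPOQ to 2 genes and LPL to 2 genes, without saying which ADIPOQ gene is adipoqa and which is adipoqb. They are therefore called adipoq-I (ENSDARG00000100086), adipoq-II (ENSDARG00000062228), lpl-I (ENSDARG00000087697) and lpl-II (ENSDARG00000098720). The other members were fabp11a (ENSDARG00000017299, listed as fabp4a), cebpa (ENSDARG00000036074), pparg (ENSDARG00000031848) and plin1 (ENSDARG00000054048).

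The 13 skin samples came from male fish of the AB strain at 3 months of age, with no treatment named. They were wild type (WT, tert+/+, n = 5), heterozygous (HET, tert+/-, n = 5) or homozygous mutant (HOM, tert-/-, n = 3), and both mutant groups carried the same line, tert hu3430. The labels number the samples but tie none to a named fish or a batch, so each p-value rests on the sample-to-sample spread, part of which may be technical.

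In mammals, fat cells store triglyceride in 1 large droplet whose coat protein is perilipin 1, the product of PLIN1. They take up fatty acids that lipoprotein lipase (LPL) frees from circulating lipoproteins, carry them with fatty acid-binding protein 4 (FABP4, whose fish counterpart is fabp11a) and secrete the hormone adiponectin (ADIPOQ). PPARG and CEBPA encode the transcription factors that drive the differentiation of fat cells. Only perilipin 1 and adiponectin are close to specific for fat. FABP4 is also made by capillary endothelium and macrophages, LPL by muscle and macrophages, and CEBPA by liver, myeloid cells and keratinocytes.

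Total counts ranged from 15709310 to 30249877 per sample, and mitochondrially encoded genes took 19.9% to 56.4% of them. The keratinocyte markers summed to between 8798 and 34894 CPM (reads scaled to the size of the library) in every sample. Markers of other tissues varied more, with skeletal muscle at 3103 to 78808 CPM in WT, 10474 to 54895 in HET and 5187 to 60238 in HOM. Liver markers summed to 125 to 46954 CPM in WT, 278 to 931 in HET and 70.4 to 1005 in HOM, and the top value was that of WT5. In a bulk sample, fewer cells of a type and less RNA per cell cannot be told apart.

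The defining marker of the set was almost absent. A single read of plin1 was counted among 299884908 counts of all samples, in WT2, where it equalled 0.0409 CPM. The other 12 samples had 0 reads, and a count of 0 allowed, at 3 reads, up to between 0.0698 and 0.248 CPM depending on the library. Every sample was thus below 3 reads of plin1. The adipocyte label of the set was not borne out by this marker. Reads of adipoq-I, adipoq-II and CIDEC were present in 13 of 13 samples, but which cells made them was not tested. By the same mark of 3 reads, adipoq-I in HET2 (2 reads) and adipoq-II in WT4 (1 read) fell short as well. Levels of other genes listed here under fat storage and hormones differed widely, and their roles in fish skin were not tested. The lipid droplet gene cidea had 13 reads in 5 samples, the leptin genes lepa and lepb had 3 reads in 3 samples and 6 in 5 samples, and fabp4b, a second gene related to mammalian FABP4, had 3 reads in 2 samples. CIDEC, which encodes a droplet fusion protein, was read in 13 of 13 samples at 0.302 to 4.66 CPM, with the highest level in WT5. Per kilobase of exon (RPKM, here CPM divided by exon length) its mean level was 1.16 ± 0.819 (SD, n = 13). The related coat genes were higher on that scale, plin3 at 21.9 ± 10.3 RPKM and plin6 at 4.85 ± 2.204 RPKM. Also read in 13 of 13 samples were g0s2, an inhibitor of triglyceride breakdown, at 29.3 ± 18.8 RPKM, the droplet gene FITM1 at 6.36 ± 7.70 RPKM, and DGAT2, an enzyme of triglyceride synthesis, at 2.18 ± 2.19 RPKM. Unlike the leptin genes, some other genes listed here with the hormones were abundant, with cfd at 1575 ± 1138 RPKM and RBP4 at 412 ± 154 RPKM. The level of cfd was highest in WT4 (3744 CPM) and lowest in WT5 (243 CPM), whereas adipoq-II had 0.0581 and 2.55 CPM there. RBP4 was highest in WT5 (1384 CPM), the sample with the most liver transcripts. Which cells made cfd and RBP4 was not tested.

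The members spanned a wide range of levels. In RPKM, fabp11a stood at 298 ± 194 (SD, n = 13), above 98.9% of the 19141 genes tested. It was the highest member in 13 of 13 samples. Next came cebpa at 46.0 ± 19.5 RPKM and lpl-I at 24.4 ± 10.3 RPKM, above 95.7% and 92.5% of the genes. Their order was not fixed, as cebpa exceeded lpl-I in 9 samples and fell below it in 4. Far lower were adipoq-I at 4.48 ± 7.96, adipoq-II at 1.36 ± 1.44, lpl-II at 1.32 ± 0.413 and pparg at 0.843 ± 0.432 RPKM. The order of these 4 neighbours was not tested, and within samples adipoq-I exceeded adipoq-II in 11 of 13.

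**Figure D1:**
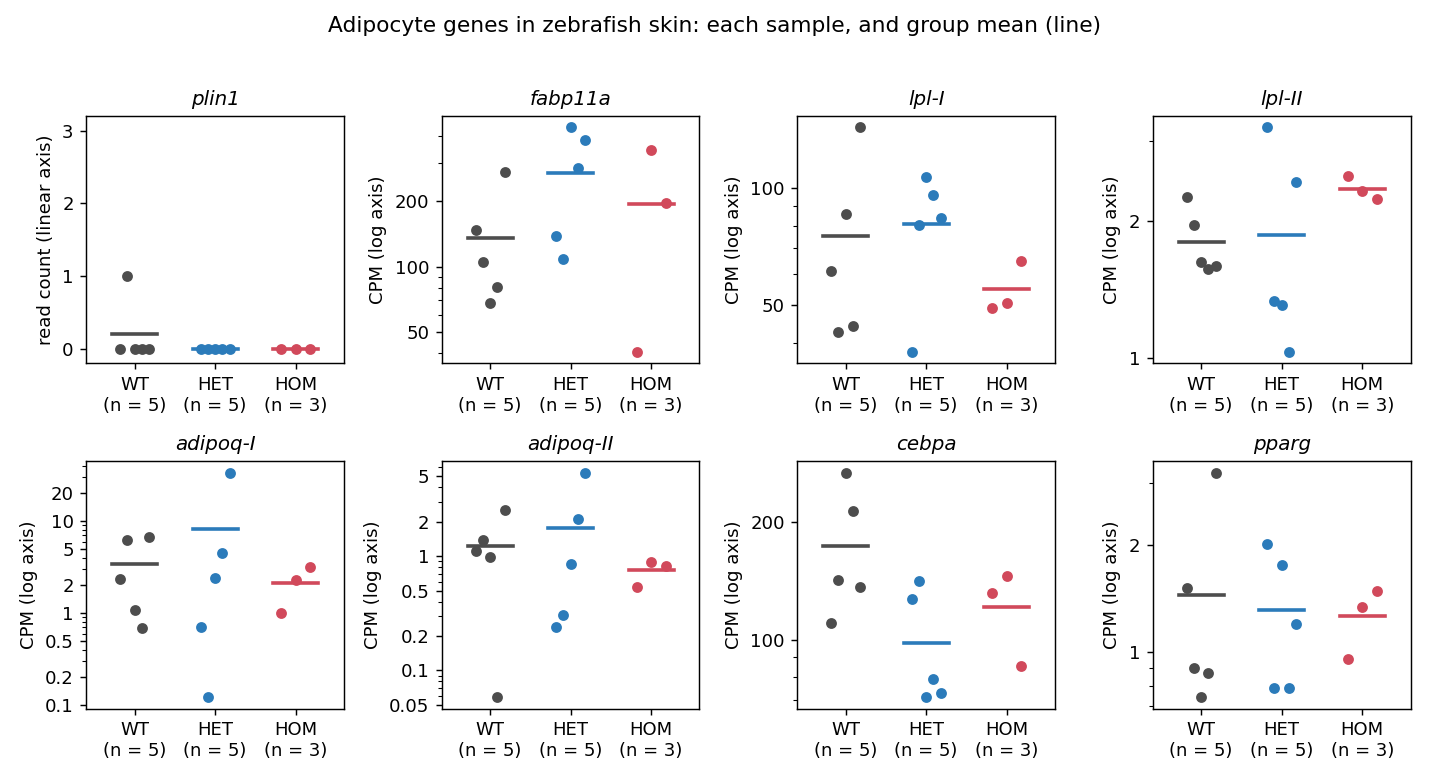
Level of each gene in every skin sample by genotype, as reads on a linear axis for plin1 and as CPM on a log axis for the other 7, with 1 point per sample and the group mean as a line. The plin1 panel holds 1 read in 1 WT sample, and in the other panels the 3 genotypes overlap; adipoq-I spans 0.121 to 33.8 CPM within HET alone.

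Of the members for fatty acid uptake and transport, fabp11a varied more than either lipase gene. Its level was 147, 105, 68.1, 80.9 and 274 CPM in WT1 to WT5, 138, 109, 438, 285 and 384 CPM in HET1 to HET5, and 40.4, 345 and 197 CPM in HOM1 to HOM3. Every genotype held a sample at 274 CPM or more, and the lowest sample of all was HOM1. The group means were 135 ± 83.2 (WT), 271 ± 146 (HET) and 194 ± 152 CPM (HOM).

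Lipoprotein lipase was represented mostly by lpl-I, which exceeded lpl-II by RPKM in 13 of 13 samples. As reads, not per length, it had 11.8 to 93 (median 29) for each read of lpl-II. Its level was 61.1, 42.7, 85.6, 44.2 and 143 CPM in WT1 to WT5, 37.8, 80.3, 107, 95.8 and 83.9 CPM in HET1 to HET5, and 49.0, 50.6 and 64.8 CPM in HOM1 to HOM3. The HOM samples were close together and fell inside the range of both other groups. The minor gene lpl-II had 2.26, 1.96, 1.62, 1.57 and 1.59 CPM in WT1 to WT5, 3.21, 1.34, 1.31, 1.03 and 2.44 CPM in HET1 to HET5, and 2.51, 2.32 and 2.23 CPM in HOM1 to HOM3. Here HOM1 and HOM2 lay above the highest WT sample and HOM3 just below it, and HET covered the whole span.

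Adiponectin was the most variable readout of the set. The level of adipoq-I was 2.32, 6.29, 1.09, 0.697 and 6.70 CPM in WT1 to WT5, 0.714, 0.121, 2.42, 4.50 and 33.8 CPM in HET1 to HET5, and 0.9998, 2.28 and 3.14 CPM in HOM1 to HOM3. HET5 stood far above every other sample with 901 reads (exact Poisson 95% interval 31.6 to 36.1 CPM), and HET2 lowest with 2 reads (0.0147 to 0.438 CPM). These intervals cover counting error only. The standard deviation of its log2 CPM over all samples, 1.82, was larger than that of 97.3% of the genes tested. The second gene, adipoq-II, had 1.12, 1.39, 0.988, 0.0581 and 2.55 CPM in WT1 to WT5, 0.238, 0.303, 0.849, 2.10 and 5.40 CPM in HET1 to HET5, and 0.535, 0.890 and 0.828 CPM in HOM1 to HOM3. HET5 was again the highest sample (144 reads), and the lowest, WT4, rested on 1 read. Its spread exceeded that of 92.4% of the genes. Without HET5 the HET mean of adipoq-I went from 8.31 ± 14.3 to 1.94 ± 1.97 CPM (n = 4), and that of adipoq-II from 1.78 ± 2.16 to 0.871 ± 0.861 CPM. By RPKM, adipoq-I exceeded adipoq-II in 11 of 13 samples, and the reads of adipoq-I per read of adipoq-II ran from 0.4 to 12 (median 2.62). Whether reads common to both copies of a pair were split between them was not tested.

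Of the adipogenic transcription factors, cebpa was abundant and pparg scarce. The level of cebpa was 110, 142, 268, 213 and 136 CPM in WT1 to WT5, 127, 141, 71.1, 79.2 and 73.1 CPM in HET1 to HET5, and 132, 146 and 85.4 CPM in HOM1 to HOM3. The highest samples were WT3 and WT4, and the 3 lowest were HET samples. The level of pparg was 1.51, 0.899, 0.741, 0.871 and 3.22 CPM in WT1 to WT5, 2.02, 0.789, 1.76, 0.790 and 1.2 CPM in HET1 to HET5, and 0.953, 1.34 and 1.49 CPM in HOM1 to HOM3. The highest value was that of WT5, the library with the most liver transcripts. Leaving it out lowered the WT mean from 1.45 ± 1.03 to 1.01 ± 0.343 CPM (n = 4), below the means of 1.31 ± 0.563 in HET and 1.26 ± 0.276 in HOM.

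The comparison of genotypes asks whether these transcripts differ in the skin when 1 or both copies of tert are mutated. No member passed edgeR's quasi-likelihood test after Benjamini-Hochberg adjustment over all genes, in HOM against WT, HET against WT, HOM against HET or the test of any difference among the 3 genotypes. The background was the same, as 0% of the 19141 genes passed in each of these tests. The lowest value belonged to cebpa in HET against WT, with 98.2 ± 33.0 CPM in HET and 174 ± 64.8 CPM in WT, a log2 fold change of -0.82 ± 0.30 (SE). Its unadjusted p of 0.0184 became an adjusted p of 0.794 in edgeR. At an unadjusted p under 0.05, 1 of the 7 members was found in HET against WT beside 5.5% of all genes, 0 of 7 in HOM against WT beside 2.73%, and 0 of 7 in HOM against HET beside 2.74%. With DESeq2, 0 of the 7 members passed in HOM against WT, where 0.207% of the genes did. DESeq2 likewise called 0 of 7 in HET against WT (0.517% of the genes) and 0 of 7 in HOM against HET (0.00379%). The smallest adjusted p of a member with DESeq2 was 0.397, for cebpa in HET against WT.

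The ranges of the groups overlapped for every tested member in every comparison. Groups did not overlap for 0 of 7 members in HOM against WT, where this held for 1.18% of all genes, for 0 of 7 in HET against WT (0.564%) and for 0 of 7 in HOM against HET (2.5%). The median log2 fold change of all genes, which the scaling of the libraries holds near 0, was -0.05, -0.04 and -0.01 in these comparisons.

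Wide intervals surrounded most of the fold changes. For fabp11a the log2 fold change was 1.004 ± 0.58 in HET against WT (95% confidence interval -0.29 to 2.29) and 0.52 ± 0.65 in HOM against WT (-0.93 to 1.98). The HOM value became -0.19 without HOM2. For adipoq-I it was 1.28 ± 1.09 in HET against WT (-1.16 to 3.72) and -1.98 ± 1.37 in HOM against HET (-5.03 to 1.07), and without HET5 these became -0.80 and 0.11. The HET value of adipoq-II, 0.55 ± 0.84 (-1.32 to 2.42), likewise became -0.46 without HET5. Narrower intervals were found for lpl-II, at 0.39 ± 0.36 in HOM against WT (-0.42 to 1.19) and 0.05 ± 0.32 in HET against WT (-0.66 to 0.75). The main lipase gene, lpl-I, had -0.46 ± 0.42 in HOM against WT (-1.39 to 0.47) and 0.10 ± 0.36 in HET against WT (-0.70 to 0.90). For pparg the values were -0.22 ± 0.52 and -0.15 ± 0.45, and without WT5 they became 0.31 and 0.37.

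**Figure D2:**
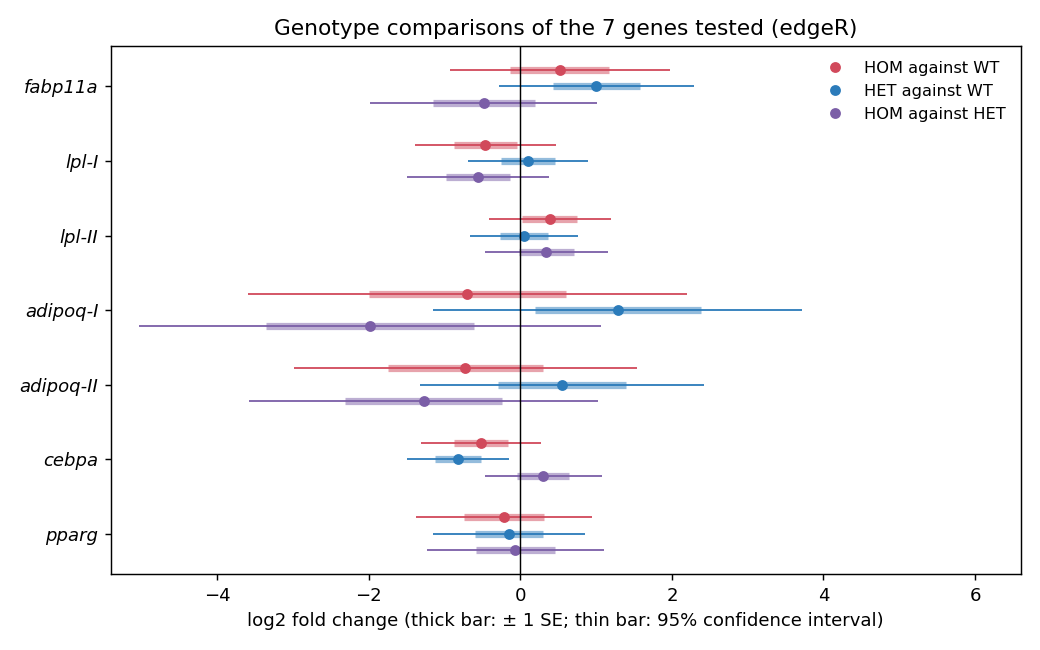
Log2 fold change of each of the 7 tested genes in the 3 genotype comparisons from edgeR, with a thick bar of 1 SE and a thin bar of the 95% confidence interval. All intervals but that of cebpa in HET against WT (-1.4998 to -0.14) include 0, and those of adipoq-I are the widest.

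Covariation between the members was examined over the 13 samples. Among the 21 pairs of members, 1 passed after adjustment over the pairs, the pair of adiponectin genes. Their log2 CPM had a Pearson's r of 0.863 over 13 samples (permutation p = 0.00032, adjusted p = 0.00672) and a Spearman's rho of 0.885 (permutation adjusted p = 0.0042). The value was 0.867 after centring on the genotype means, 0.853 without HET2 and HET5, the 2 samples farthest from the median, and 0.795 to 0.918 when any 1 sample was left out. Adiponectin genes were thus high together in HET5, WT5, HET4 and WT2 and low together in HET1, HET2 and WT4. No other pair passed. The next were fabp11a with cebpa (r = -0.682, permutation adjusted p = 0.105) and lpl-I with lpl-II (r = -0.625, permutation adjusted p = 0.161), both negative. The pairs of pparg, known as the regulator of several of the other members in mammalian fat, had r of -0.309 (cebpa) to 0.497 (fabp11a), and none passed.

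**Figure D3:**
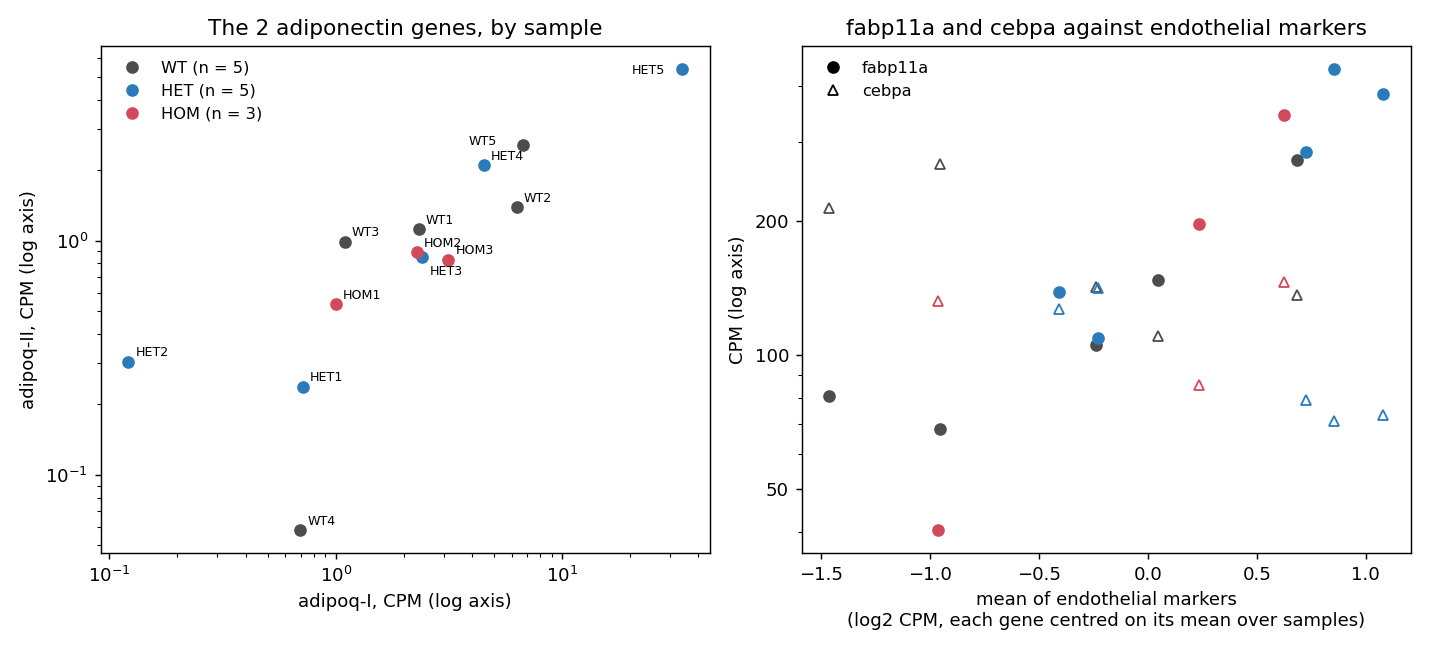
Left, CPM of adipoq-II against adipoq-I on log axes, with 1 labelled point per sample coloured by genotype; the points rise together from WT4, HET1 and HET2 to HET5. Right, CPM of fabp11a (filled circles) and cebpa (open triangles) on a log axis against the mean of the endothelial markers in the same sample, coloured as on the left; fabp11a rises with the endothelial mean and cebpa falls.

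Each member was next set against the mean level of 6 lists of cell type markers and the mitochondrial share of counts, 49 relations in all, of which 4 passed. The strongest was fabp11a with the endothelial markers, genes of blood vessel lining such as kdrl, cdh5 and tie1, at r = 0.928 over 13 samples. Its permutation p of 1e-05 was the smallest the 100000 resamples could give (adjusted p = 0.00049), and rho was 0.945. The relation was 0.965 without HET5 and WT4, the samples farthest from the median, and 0.914 after centring on the genotype means. All 19 endothelial markers were measured above the filter, and they summed to 101 to 366 CPM in WT, 182 to 458 in HET and 100 to 342 in HOM. Their fold changes had the sign of that of fabp11a, with 19 of 19 above WT in HET and 18 of 19 in HOM (median log2 fold change 0.67 and 0.30). Of these, 0 passed in either. At an unadjusted p under 0.05 in edgeR, 4 of 19 were higher in HET and 1 of 19 in HOM, beside 5.5% and 2.73% of all genes in either direction. As fabp11a followed their mean over the same samples, the shared sign is no separate evidence. The part of these markers in the level of fabp11a was not tested. With macrophage markers, the other known site of FABP4 in mammals, fabp11a had an r of 0.173 (permutation adjusted p = 0.747). Larger values that did not pass were 0.679 with the skeletal muscle markers and -0.640 with the keratinocyte markers (permutation adjusted p = 0.089 and 0.112).

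The other 3 relations that passed concerned cebpa and adipoq-II. With the endothelial markers cebpa had an r of -0.777 and adipoq-II one of 0.751, and adipoq-II had 0.741 with the skeletal muscle markers (permutation adjusted p = 0.0368 each). None of these 3 passed by Spearman's rho (permutation adjusted p = 0.103, 0.108 and 0.103), and without the 2 samples farthest from the median the r values were -0.666, 0.507 and 0.599. Both list means were lowest in WT4 (-1.46 for endothelial and -2.44 for skeletal muscle markers), and the highest were in HET5 (1.08) and WT5 (1.86). The lists were not set against each other. Whether any member followed either list apart from the other was not tested. The values for adipoq-I were 0.662 with endothelial and 0.567 with skeletal muscle markers (permutation adjusted p = 0.089 and 0.160). Between lpl-II and the dermal fibroblast markers, r was 0.686, and between lpl-I and the same markers -0.0712 (permutation adjusted p = 0.089 and 0.885). With skeletal muscle and macrophage markers, lpl-I had 0.529 and 0.252 (permutation adjusted p = 0.210 and 0.611). For cebpa, r was -0.617 with macrophage, 0.295 with keratinocyte and -0.208 with liver markers (permutation adjusted p = 0.119, 0.550 and 0.657). For pparg and the liver markers r was 0.583 (permutation adjusted p = 0.160), and it was 0.0148 without WT1 and WT5, so that relation rested on these samples. With the mitochondrial share of counts, r lay between -0.356 (adipoq-II) and 0.450 (fabp11a), and 0 of 7 members passed.

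**Figure D4:**
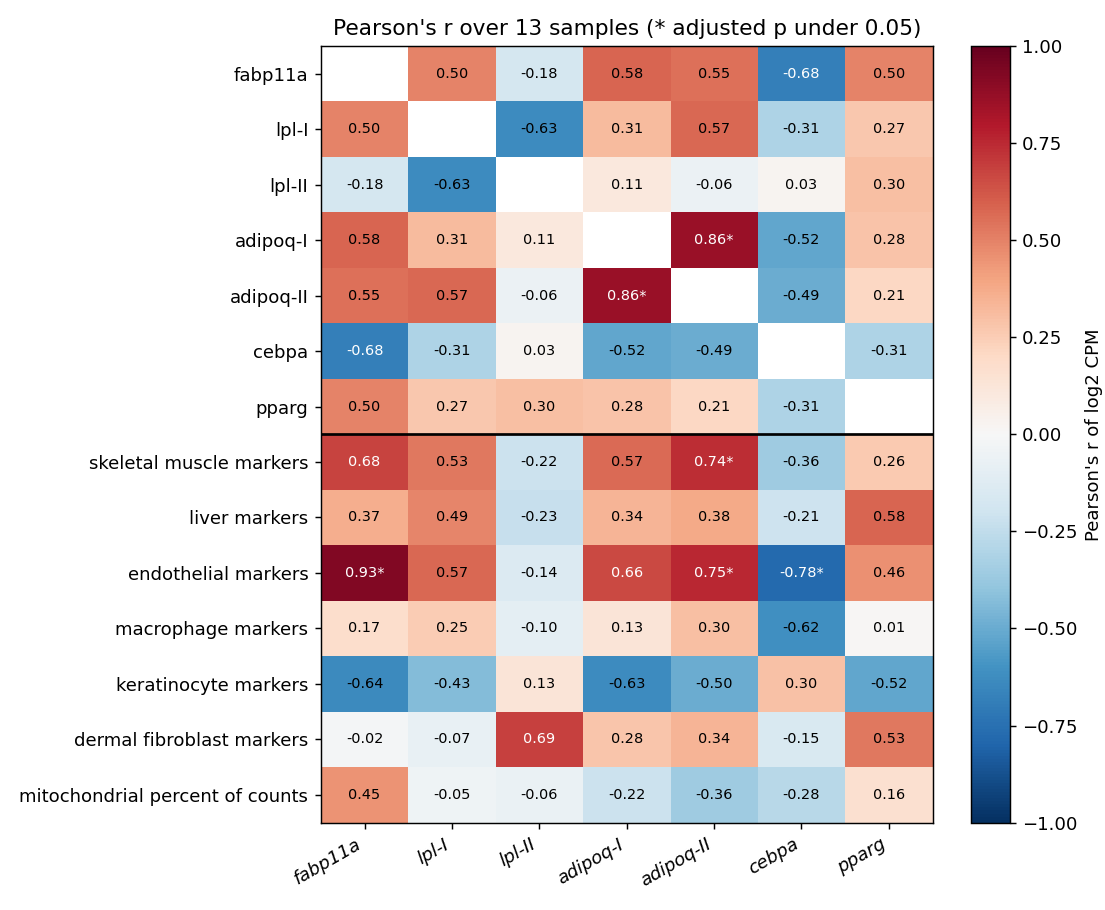
Pearson's r of log2 CPM over 13 samples between the 7 tested genes (above the line) and of each gene with the marker means and the mitochondrial share of counts (below the line). An asterisk marks an adjusted p under 0.05 within the 21 pairs or the 49 relations; 1 pair of genes and 4 relations with markers carry one, the strongest being 0.93 for fabp11a with endothelial markers.

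The genes whose pattern over the 13 samples was most like that of each member were listed from 15115 genes with a symbol and a mean of at least 1 CPM. These r values are the highest of many and are given as a description, and genes chosen this way share a member's extreme samples by selection. For fabp11a the closest were she, FLI1 and EGFL7 (r = 0.988, 0.985 and 0.973), of which FLI1, a transcription factor of endothelium, and EGFL7, which endothelium secretes, also belonged to the endothelial list. The level of she was 41.1 CPM in HET3 and 6.67 CPM in HOM1, which were also the highest and the lowest samples for fabp11a. The list of the 10 closest ended with MYF5, a muscle gene (r = 0.956), and pecam1a, a junction protein of endothelium (r = 0.953).

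For adipoq-I the closest genes were KCNF1, TPM2 and CASQ2 (r = 0.967, 0.966 and 0.955). TPM2 encodes beta-tropomyosin and CASQ2 the calsequestrin of cardiac muscle, both also present in slow skeletal muscle of mammals. TPM2 stood at 1966 CPM in HET5 and 44.1 CPM in HET2, the same extremes as adipoq-I, and CASQ2 ran from 2.85 to 186 CPM. Of the 10 closest genes, 9 were highest in HET5. Among the 10, named after their values were seen, were the calcium pump gene atp2a2a (r = 0.947) and mstnb, a myostatin gene (r = 0.949). Also among the 10 was MYL2, a myosin light chain gene (r = 0.946), which was highest in WT5 (3.03 CPM) and was likewise named after its values were seen. For adipoq-II the closest were si:ch73-288o11.5, ACADS and CD151 (r = 0.965, 0.958 and 0.955), and 10 of 10 were highest in HET5. ACADS encodes a mitochondrial enzyme of fatty acid oxidation, and its level was 75.8 CPM in HET5 and 9.87 CPM in WT4, where adipoq-II was lowest. The group also held CKMT2, the mitochondrial creatine kinase of striated muscle (r = 0.941, 51.7 to 1962 CPM), likewise named after its values were seen. Among the 19140 other genes tested, adipoq-II ranked 197 in likeness to adipoq-I and adipoq-I ranked 201 in likeness to adipoq-II, so many genes followed either one more closely than the other copy did.

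The lipase genes had different neighbours. For lpl-I the closest were si:ch73-61d6.3, f3b and ACACB (r = 0.942, 0.866 and 0.865), with ACACB encoding the acetyl-CoA carboxylase that restrains fatty acid oxidation in muscle and liver of mammals. ACACB was highest in WT5 at 74.8 CPM, as lpl-I was, and 8 of the 10 closest genes were highest there. For lpl-II they were SOST, ASPN and OTOG (r = 0.879, 0.870 and 0.848). SOST encodes sclerostin of bone cells and ASPN asporin of connective tissue matrix, and SOST ran from 2.92 CPM in HET4, where lpl-II was also lowest, to 10.4 CPM in WT1. The closest genes to cebpa were SEH1L, ERC1 and mst1rb (r = 0.905, 0.891 and 0.889), and those to pparg were si:dkey-56m19.5, KCTD12 and TMEM120A (r = 0.915, 0.853 and 0.853), with 10 of the 10 closest to pparg highest in WT5. No member was among the 10 closest genes of another.

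The wider fat pathway was covered by 7 lists with 163 genes in the count table, of which 151 were tested and 0 passed in any comparison. Of the 151, 55 lay above and 96 below WT in HOM, 68 above and 83 below WT in HET, and 69 above and 82 below HET in HOM. At an unadjusted p under 0.05 the counts were 10 (6.62%), 15 (9.93%) and 7 (4.64%), beside the background of 2.73%, 5.5% and 2.74% given above, and 9, 8 and 7 of them were lower. Most of all genes at that threshold were lower too, with 378 lower and 144 higher in HOM against WT, 667 and 385 in HET against WT, and 291 and 234 in HOM against HET. The list of fatty acid uptake, which includes liver genes such as apoc2, gave 5 of the lower genes in HOM against WT and 5 in HET against WT. The median log2 fold change in HOM against WT ran from -0.33 (lipolysis, 18 tested) to 0.24 (preadipocyte and stromal genes, 15 tested), beside -0.05 for all genes.

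In the list of lipid droplet and triglyceride storage (23 tested, median -0.31 in HOM against WT and 0.02 in HET against WT), the smallest p belonged to cideb, a droplet gene of the liver. Its level was 2.92 ± 5.44 CPM in WT with 12.6 CPM in WT5, against 0.160 ± 0.0982 in HET and 0.168 ± 0.155 in HOM. PLIN2, a widely expressed droplet coat gene, had its highest level in WT5 too, at 34.6 CPM with a median of 1.41 CPM. Among the genes of lipolysis, lipea, the hormone-sensitive lipase of fat, was detected in every sample at 15.9 ± 3.45 CPM in WT, 15.99 ± 4.09 in HET and 11.1 ± 3.62 in HOM (log2 fold change of HOM against WT -0.52 ± 0.28, edgeR adjusted p = 0.999965). The related gene lipeb went the other way, with means of 2.84 CPM in WT, 3.81 in HET and 3.89 in HOM. Its log2 fold change was 0.46 ± 0.36 (SE) in HOM against WT and 0.42 ± 0.31 in HET against WT. The beta-adrenergic receptor gene adrb3b was scarce, at 0.149 ± 0.0805 CPM in WT, 0.594 ± 0.285 in HET and 0.438 ± 0.553 in HOM. Its relative ADRB3 had 0.348 to 9.97 CPM in WT, 0.607 to 5.09 in HET and 0.930 to 3.56 in HOM. None of lipea, lipeb and adrb3b passed.

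In the list of fatty acid uptake and lipoprotein lipase handling (25 tested, medians -0.15 and -0.19), 1 of 2 genes with the symbol SLC27A1, a fatty acid transport protein (ENSDARG00000104949), stood at 132 ± 74.9 CPM in WT, 90.9 ± 23.9 in HET and 47.4 ± 14.4 in HOM. WT ran from 77.9 CPM to 263 CPM in WT1, HET from 69.5 to 130 CPM and HOM from 31.4 to 59.3 CPM. HOM thus overlapped with neither other group. Taken singly, HOM did not overlap with WT for 1.18% and with HET for 2.5% of all genes. As this gene was picked by its p, the lack of overlap is no separate evidence. Its log2 fold change of HOM against WT was -1.47 ± 0.41 with an edgeR adjusted p of 0.999965. The second SLC27A1 gene (ENSDARG00000006240) had 23.7 to 46.7 CPM in WT, 18.4 to 62.8 in HET and 19.9 to 34.4 in HOM. The lipase cofactor gene apoc2, a liver gene, and the lipase inhibitor gene angptl8 reached 306 and 18.9 CPM in WT5. Their means were 71.5 ± 132 and 4.58 ± 8.03 CPM in WT against 3.11 ± 1.501 and 0.160 ± 0.0931 CPM in HET. All 22 liver markers tested lay below WT in both HET and HOM, and their part in these values was not tested. Their sum was highest in WT5 (46954 CPM), whereas WT3 and WT4 had 125 and 409 CPM, below the HET median of 662 CPM. In the list of fatty acid synthesis (20 tested, medians -0.08 and -0.19), MID1IP1, an activator of acetyl-CoA carboxylase, was at 41.3 ± 15.5 CPM in WT, 67.1 ± 11.6 in HET and 42.3 ± 8.86 in HOM. Its relative mid1ip1a had 24.7 to 211 CPM in WT, 31.6 to 102 in HET and 18.4 to 82.7 in HOM. For mid1ip1l the ranges were 39.4 to 93.9, 37.5 to 206 and 38.4 to 112 CPM.

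Among 31 tested adipogenic regulators (medians -0.21 and -0.05), the coactivator gene ppargc1b was at 26.5 ± 7.41 CPM in WT, 39.5 ± 9.35 in HET and 27.9 ± 2.74 in HOM. The PPARD gene (ENSDARG00000009473), for a nuclear receptor related to PPARG, was at 27.6 ± 3.48, 24.2 ± 5.48 and 20.3 ± 0.615 CPM, and the second (ENSDARG00000044525) at 4.29 to 22, 6.18 to 17.1 and 4.21 to 8.52 CPM. Of 19 hormone and receptor genes (medians -0.20 and -0.18), ghrb, a growth hormone receptor gene, was at 21.3 ± 8.15, 18.8 ± 7.34 and 12.2 ± 0.680 CPM. The lowest unadjusted p of all the lists was that of cd34, a surface protein of stromal progenitors and of endothelium in mammals, in the preadipocyte and stromal list. Its level was 6.73 to 12.6 CPM (median 9.66) in WT, 14.5 to 23.2 (median 19.0) in HET and 14.4 to 18.2 (median 16.4) in HOM. WT thus overlapped with neither mutant group. Taken singly, WT did not overlap with HET for 0.564% and with HOM for 1.18% of all genes. As cd34 was picked by its p, the lack of overlap is no separate evidence. The log2 fold change was 0.93 ± 0.19 in HET against WT (edgeR adjusted p = 0.794) and 0.75 ± 0.21 in HOM against WT (edgeR adjusted p = 0.999965), and neither passed.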

How the data were processed

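Polyadenylated RNA of 13 zebrafish skin samples had been sequenced with a kit that does not mark strand. Per the submitters' processing notes, STAR 2.4.1d, featureCounts 1.4.6-p4 and the build GRCz10 were used, with no settings given. The authors deposited whole-number read counts per gene. They also deposited a table named RPKM, handled here as a score. For 3854 well-covered genes, the length implied by each gene's count and score had a median coefficient of variation of 32.3% with each library's own total and 0.0026% with the 13 totals recycled down the rows, so only the gene lengths were taken from it.

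Groups came from the genotype in the labels. Of 32105 genes, 26269 (81.8%) had a symbol, and a RefSeq table served for names only. Counts were fitted with edgeR 4.0.16 in R 4.3.3 (filterByExpr, TMM, robust glmQLFit, glmQLFTest, all 13 samples, 19141 genes, two-sided), with Benjamini-Hochberg adjustment over all genes and a threshold of 0.05. CPM and RPKM used TMM-scaled library sizes. Correlations used log2 CPM with a prior count of 2 and two-sided permutation tests (100000 resamples) with Pearson's r and Spearman's rho. Marker means were means of log2 CPM centred per gene. Named genes were the members, the 3 genes closest to each member (10 for plin1, which had too few reads for this) and the 3 genes of each pathway list with the smallest p; others named were chosen after their values were seen. The members and lists were chosen with earlier results of these data known. Alternatives were DESeq2 1.42.0, other scaling and filters, mitochondrially encoded genes left out, no robust moderation, 2 groups at a time in the fit, a surrogate variable (sva 3.50.0), muscle or liver means as covariates, WT1 and WT5 left out together, and each sample left out singly. The fit was tested on simulated counts. No sequences or coordinates of GRCz10 were used here.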

Additional observations from a re-analysis of the deposited data

Results flagged for a closer look

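In the groups with 5 samples, a sample far from the other 4 can be recognised by Dixon's test at its critical value of 0.71. The ratio of the test exceeded it for 2 values. For normally distributed values, chance alone gives about 1 such value in 20 groups, and 8 genes were examined in each of 2 groups. The test was run on CPM without a log. Levels as skewed as those of adipoq-I in HET (0.121 to 33.8 CPM) exceed the critical value more often, so that rate does not apply to them. On a log scale the test was not run. The level of adipoq-I in HET5, 33.8 CPM, lay far above the other HET samples, which ended at 4.50 CPM. It rested on 901 reads. In the same sample adipoq-II was also the highest of all samples, at 5.40 CPM. The level of plin1 in WT2, 0.0409 CPM, was a single read among WT samples at 0. There the ratio is 1 whatever the number of reads, so the test could not judge this value.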

How the results depend on the processing

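Over 12 alternatives besides leaving out 1 sample and over the 13 samples left out in turn, 0 of 525 member fold changes passed the threshold (smallest adjusted p 0.397, cebpa in HET against WT with DESeq2). Where edgeR called 0 genes, DESeq2 called 105 for HET against WT, 40 for HOM against WT and 1 for HOM against HET. Of the fold changes, 15 turned their sign without a sample being left out singly, and the causes were not tested. In HET against WT, no scaling gave -0.14 for lpl-I and -0.20 for lpl-II. In HOM against WT, 1 surrogate variable gave 1.02 for adipoq-I and 0.68 for adipoq-II. The muscle mean as covariate gave 0.029 for adipoq-I (HOM against WT), -0.0040 for lpl-I (HET against WT) and 0.0086 for pparg (HOM against HET). The liver mean gave 0.29 for adipoq-I, 0.014 for adipoq-II and 0.57 for pparg in HOM against WT, -0.015 for lpl-II and 0.45 for pparg in HET against WT, and 0.12 for pparg in HOM against HET. Without WT1 and WT5 together, pparg had 0.59 in HOM against WT and 0.63 in HET against WT.

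Leaving out each sample in turn turned the sign in 16 of 273 cases. In HET against WT the values ran from -0.076 to 0.47 (lpl-I), -0.26 to 0.20 (lpl-II), -0.80 to 1.68 (adipoq-I), -0.46 to 1.0003 (adipoq-II) and -0.39 to 0.37 (pparg). In HOM against WT they ran from -0.19 to 1.02 (fabp11a) and -0.38 to 0.31 (pparg). In HOM against HET they ran from -1.19 to 0.059 (fabp11a), -2.36 to 0.11 (adipoq-I) and -0.20 to 0.16 (pparg). The signs of cebpa were kept under every alternative run.

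The correlation of the adiponectin genes was 0.795 to 0.940 over all settings run. At an unadjusted permutation p of 0.05, the pair of fabp11a and adipoq-II crossed the threshold on log2(CPM + 1), with an r of 0.563 in place of 0.554, and that of lpl-I and lpl-II no longer did on unscaled CPM, with -0.327 in place of -0.625. With 3 HOM samples and 1 to 5 reads of the adiponectin genes in some libraries, depth and replication limited the precision of the lowest values. No paired analysis was possible because the labels pair no samples across genotypes.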
